A study of Mus musculus with 24 samples.

Results

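Keratins are the intermediate filament proteins of epithelia, and vimentin is the intermediate filament protein of mesenchymal cells. The transcripts of 8 keratin genes and of vimentin (Vim) were followed in single cortical collecting ducts microdissected from mouse kidney, which makes 9 of the 55416 genes in the deposited table. The genes were taken by symbol, and each symbol had 1 row: the type II keratins Krt7 (ENSMUSG00000023039), Krt8 (ENSMUSG00000049382) and Krt5 (ENSMUSG00000061527), the type I keratins Krt18 (ENSMUSG00000023043), Krt19 (ENSMUSG00000020911), Krt23 (ENSMUSG00000006777), Krt10 (ENSMUSG00000019761) and Krt15 (ENSMUSG00000054146), and Vim (ENSMUSG00000026728). The tubules came from untreated male C57BL/6 mice aged 10 weeks, 4 wild type (WT) and 4 mutant (MUT), with 3 tubules sequenced singly per mouse and hence 24 libraries. The MUT mice carry alanine in place of threonine 551 and serine 552 of beta-catenin (Ctnnb1) according to the sample labels, whereas the legend of the deposited table names serine 552 alone. The labels also give a vehicle as treatment for all samples, while the treatment protocol speaks of groups given none, and no treatment was compared. Neither the kinship of the genotypes nor any promoter restricting the allele is stated, and the replicate of a genotype is the mouse.

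A keratin filament is built from obligate pairs of 1 type II and 1 type I chain, so that a chain without a partner is unstable and is degraded. Krt8 and Krt18 are the pair of simple, single-layered epithelia, including the tubules of the kidney. Krt7 and Krt19 are added in ductal epithelia, Krt5 and Krt15 belong to the basal layer of stratified epithelia, and Krt10 to the upper layers of the epidermis. Vimentin forms filaments by itself in fibroblasts, endothelium and leukocytes, and injured tubule cells are known to re-express it. The collecting duct mixes principal cells, which reabsorb water and sodium, with intercalated cells, which move acid and bicarbonate. Type B intercalated cells carry the exchangers Slc26a4 (pendrin) and Slc4a9, and type A cells carry Slc4a1.

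The 7 genes with a promoter in the RefSeq table (GRCm38.p6) were all members other than Krt15 and Krt19. The promoters of the pairs whose levels moved together across tubules are shown because they allow the sequence of co-varying genes to be set side by side. Each runs 5′ to 3′ on the strand of its gene from upstream of the start to just inside the transcript, over 300 bases, at chr15:102004293-102004592 (minus strand) for Krt8, chr15:102027966-102028265 (plus) for Krt18, chr15:101412153-101412452 (plus) for Krt7 and chr11:99493071-99493370 (minus) for Krt23. Capitals mark matches on either strand to TATAAA, to the GC box GGGCGG, to TGANTCA, to the NF-kappaB motif or to TGTTTAC.
Krt8: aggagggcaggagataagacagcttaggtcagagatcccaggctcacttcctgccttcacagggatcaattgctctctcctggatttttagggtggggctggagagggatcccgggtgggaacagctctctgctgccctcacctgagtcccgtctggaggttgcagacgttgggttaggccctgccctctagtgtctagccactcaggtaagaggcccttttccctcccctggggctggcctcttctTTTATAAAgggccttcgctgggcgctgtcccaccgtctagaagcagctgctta
Krt18: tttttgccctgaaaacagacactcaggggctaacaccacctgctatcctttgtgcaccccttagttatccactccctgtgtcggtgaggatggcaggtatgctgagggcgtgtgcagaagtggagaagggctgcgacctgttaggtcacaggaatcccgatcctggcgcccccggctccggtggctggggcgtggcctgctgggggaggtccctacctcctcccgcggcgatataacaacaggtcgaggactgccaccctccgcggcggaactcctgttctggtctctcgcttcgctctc
Krt7: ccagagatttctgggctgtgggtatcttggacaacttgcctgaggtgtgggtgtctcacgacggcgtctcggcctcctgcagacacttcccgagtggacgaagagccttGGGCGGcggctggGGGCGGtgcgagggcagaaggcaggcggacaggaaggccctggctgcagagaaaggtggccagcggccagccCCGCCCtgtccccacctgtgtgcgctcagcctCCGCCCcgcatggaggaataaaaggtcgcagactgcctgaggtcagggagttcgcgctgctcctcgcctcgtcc
Krt23: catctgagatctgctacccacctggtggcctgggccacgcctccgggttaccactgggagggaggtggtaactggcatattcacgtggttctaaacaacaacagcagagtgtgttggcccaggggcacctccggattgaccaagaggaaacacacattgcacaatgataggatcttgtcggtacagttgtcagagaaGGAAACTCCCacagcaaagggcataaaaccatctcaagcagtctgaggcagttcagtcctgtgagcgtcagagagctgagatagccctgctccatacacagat
The Krt8 window held TATAAA on both strands, in overlapping positions, and the Krt18 window held none of the 5 motifs. The Krt7 window held 4 GC boxes, and the Krt23 window held 1 match to the NF-kappaB motif on the opposite strand. Of 32851 RefSeq promoters of the same length, 13.6% held TATAAA, 35.7% the GC box, 7.81% TGANTCA (the AP-1 motif), 0.411% the NF-kappaB motif and 3.65% TGTTTAC (a forkhead motif). The GC content was 58% for Krt8, 61.3% for Krt18, 66.3% for Krt7 and 53% for Krt23. These matches describe letters in the windows, and no motif was shared within either pair. Krt8 and Krt18 are neighbouring coding genes on chromosome 15 with 0 coding genes between them, although they are of opposite filament type, whereas Krt7 and Krt23 lie on chromosomes 15 and 11.

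The values are TPM, transcript abundances corrected for transcript length and scaled to the same total in each library, which keeps no record of depth, so that counting error is unknown. Per library, 23580 to 32480 genes were above 0 and 13572 to 16091 genes reached 1 TPM. Collecting duct markers were high in every library, with 9 principal cell genes summing to between 22997 and 55218 TPM and 9 intercalated cell genes to between 7188 and 9817 TPM. Libraries of both genotypes also held transcripts of neighbouring segments and of blood. Summed levels reached 5560 TPM in WT and 1278 TPM in MUT for 9 proximal tubule genes, 4768 and 435 TPM for 5 genes of the thick ascending limb, and 24801 and 200.3 TPM for 4 globin genes. The part of these in the results was not tested. Ctnnb1 averaged 387 ± 11.9 TPM over the WT mice and 383 ± 16.7 TPM over the MUT mice (SD, n = 4 mice each), and a level does not check a change of codon.

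Most of the keratin message came from Krt7, Krt18 and Krt8, which held 88.3% ± 0.618 (SD, n = 8 mice) of all keratin TPM. Krt7 was the highest type II chain, with 648 TPM over the 8 mice and rank 221 of the 15013 genes tested. Among WT tubules its lowest, median and highest values were 506, 655 and 719 TPM, and among MUT tubules they were 546, 673 and 708 TPM. The ranges overlapped almost entirely. Krt8, the second type II chain, had a mean of 278 TPM, with 225, 254 and 396 TPM in WT tubules and 227, 259.9 and 370.1 TPM in MUT tubules. The medians lay near the lower end of the range, and 5 tubules of 3 mice stood above the rest: tubule 1 of WT mouse 1, tubules 1 and 3 of WT mouse 4 and tubules 1 and 3 of MUT mouse 2. Krt5 was listed at 0 in 22 of 24 tubules and reached 0.07 TPM at most.

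Of the type I chains, Krt18 was the highest, with a mean of 493 TPM and with 408, 468 and 696 TPM as lowest, median and highest in WT tubules. The corresponding values in MUT tubules were 367, 476 and 610.0 TPM, again within the WT range but for the lowest. Krt23, a type I keratin less studied than the others, followed at 82.5 TPM, with 51.3, 88.0 and 109 TPM in WT tubules and 61.8, 78.9 and 92.2 TPM in MUT tubules. Krt10 had a mean of 18.0 TPM, with a range from 12.5 to 23.7 TPM over all tubules, and Krt19 had 12.1 TPM, with a range from 6.11 to 18.0 TPM. Both were far below Krt18 on the same per-length scale. Krt15, of basal cells, was above 0 in 4 of 24 tubules and reached 0.36 TPM, beside a list of 6 urothelial and basal markers whose sum ran from 5.54 to 12.7 TPM. Of these, Trp63 averaged 4.97 TPM, Upk1a 2.69 TPM and Upk3a 1.50 TPM, while Upk1b, Upk2 and Krt14 stayed under 1 TPM in every library.

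The order of the levels was steady between tubules. Krt7 exceeded Krt18 in 8 of 8 mice and 21 of 24 tubules, although the mouse means of the genes overlapped. Krt18 exceeded Krt8 in 24 of 24 tubules, and Krt10 exceeded Krt19 in 24 of 24 tubules. Vim was last among the genes tested, below Krt19 in 23 of 24 tubules. Over all keratin genes of the table, type II chains summed to 999.5 ± 76.8 TPM and type I chains to 607 ± 65.9 TPM (SD, n = 8 mice), a ratio of 1.67 ± 0.137. Together the 9 genes took up 0.153% of all TPM.

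**Figure D1:**
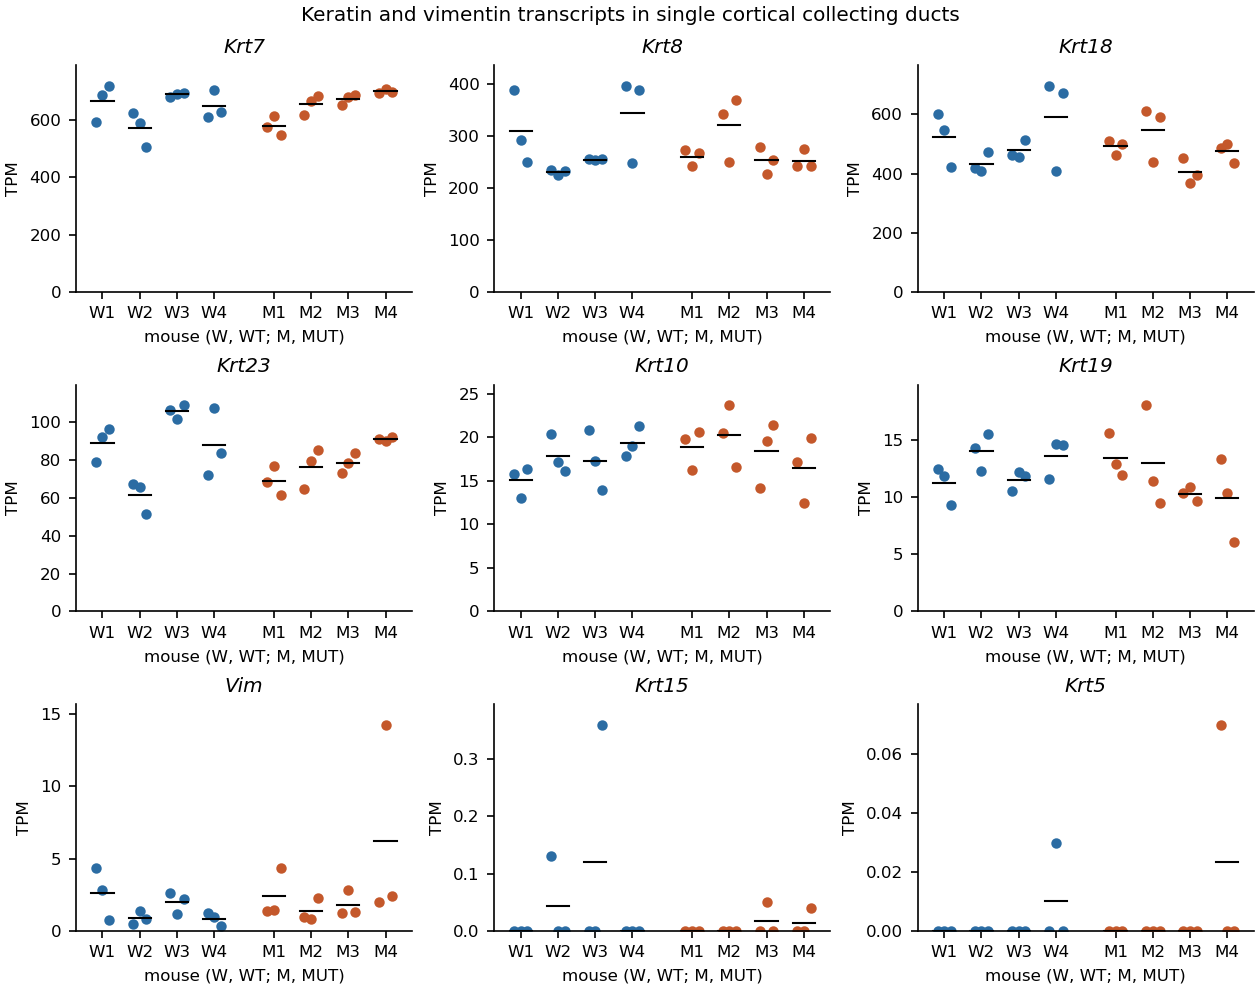
Level of each gene in TPM on a linear axis from 0, 1 panel per gene, with mice along the x axis (W, WT; M, MUT), 1 point per tubule and a bar at the mean of the mouse. WT and MUT overlap in every panel, the Krt8 and Krt18 panels share their high tubules in WT mice 1 and 4 and MUT mouse 2, and 1 tubule of MUT mouse 4 stands at 14.3 TPM in the Vim panel.

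Some of these levels may be uncertain, since the strand used in counting is not stated and RNA of overlapping genes could be shared between them. Krt7 overlaps the antisense gene Gm671, listed at 11.6 TPM, and Krt10 overlaps the antisense gene Gm11940, listed at 0.985 TPM. Krt8 overlaps the long noncoding RNA gene Gm36026, at 0.41 TPM, and has a near copy in the pseudogene Krt8-ps, at 2.44 TPM. Against the levels of Krt7, Krt8 and Krt10 these values were small.

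Krt8 and Krt18 rose and fell together from tubule to tubule. The ratio of Krt8 to Krt18 in TPM was 0.564 ± 0.0364 (SD, n = 8 mice) and stayed between 0.491 and 0.645 in the 24 tubules, a coefficient of variation of 7.82%. Across the 24 tubules the log2 values had a Pearson r of 0.90 and a Spearman rho of 0.81, and the rho was 0.88 once each mouse was centred on its own mean. It was 0.88 in the 12 WT tubules, 0.74 in the 12 MUT tubules and 0.76 over 22 tubules without the 2 farthest from the median of Krt8. The 5 tubules high in Krt8, at 389, 396, 389, 341 and 370.1 TPM, had Krt18 at 602, 696, 671, 610.0 and 591 TPM, the 5 highest Krt18 values. Of 10556 genes ranked by rho, Krt18 was the 2nd most like Krt8, and Krt8 was the most like Krt18. All correlations across tubules here are descriptions, since 3 tubules share a mouse, both genes of a pair share a library, and TPM values share a sum.

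Krt7 did not move with that pair. The ratio of Krt7 to Krt8 ranged from 1.53 to 3.00 over tubules, with a coefficient of variation of 19.2%, and the rho of Krt7 was -0.08 with Krt8 and -0.26 with Krt18. Centred on each mouse, the rho was -0.56 with Krt8 and -0.64 with Krt18, so within a mouse the tubules high in Krt7 tended to be low in the Krt8 and Krt18 pair. Krt7 instead varied with Krt23, with an r of 0.88 and a rho of 0.86. The rho of Krt7 and Krt23 was 0.93 when centred on each mouse, 0.87 in WT and 0.93 in MUT tubules, and 0.82 without the 3 tubules of WT mouse 2, the mouse with the lowest mean of both. Krt23 ranked 60th of 10556 genes for likeness to Krt7, and Krt7 ranked 48th for Krt23. Krt19 had a negative rho with both, of -0.52 with Krt7 and -0.40 with Krt23, and of -0.29 and -0.39 when each mouse was centred on its own mean.

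**Figure D2:**
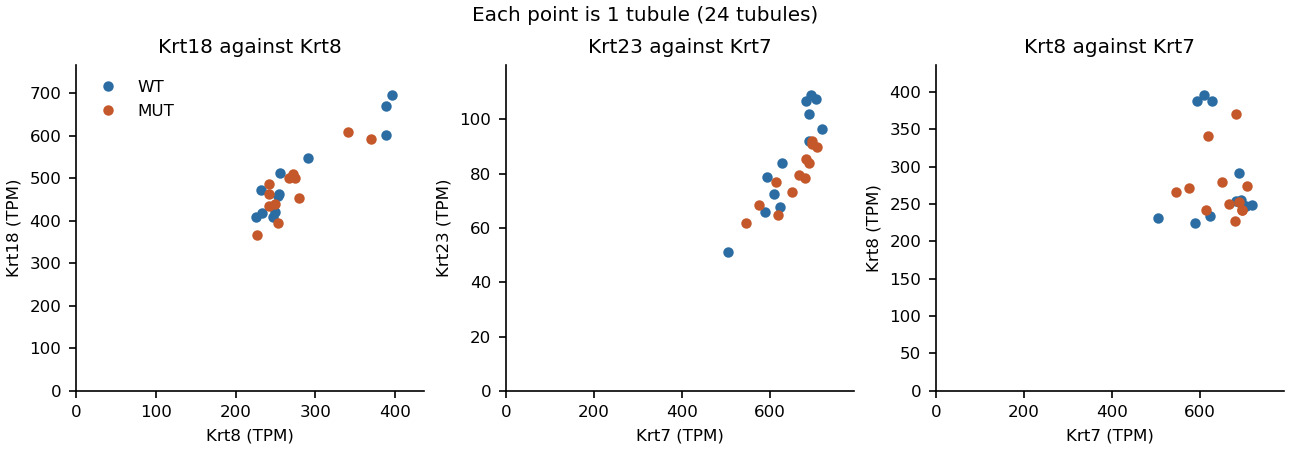
Krt18 against Krt8, Krt23 against Krt7 and Krt8 against Krt7, all in TPM on axes from 0, with 1 point per tubule coloured by genotype. The first pair and the second rise together (Spearman rho 0.81 and 0.86), with 5 tubules apart at the top of the first, while Krt8 shows no slope on Krt7 (rho -0.08).

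The tubules also differed in the balance of principal and intercalated cell transcripts, and Krt7 and Krt23 varied with that balance. In bulk RNA of a tubule, fewer cells of a type and less RNA per cell cannot be told apart. The marker genes named next were singled out after their values were seen. Krt7 had a negative rho with 8 of 9 principal cell genes (median -0.61), down to -0.80 for the potassium channel Kcnj1, the exception being the sodium channel subunit Scnn1b at 0.47. Of the 9 intercalated cell genes, 6 were positive with Krt7 and 3 were negative (median 0.33). Within that list the rho of Krt7 was 0.88 for Slc26a4 and 0.83 for Slc4a9, both of type B cells. It was -0.67 for Slc4a1 of type A cells, and the other negative genes were Rhcg at -0.49 and Kit at -0.17. Krt23 had the same arrangement, with 0.91 for Slc26a4, 0.81 for Slc4a9, -0.81 for Slc4a1, -0.87 for Kcnj1 and 0.61 for Scnn1b. Of the intercalated cell genes 6 were positive with Krt23 and 3 were negative (median 0.44), among the latter Rhcg at -0.64 and Kit at -0.27. When each mouse was centred on its own mean, the principal and intercalated medians were -0.64 and 0.60 for Krt7 and -0.60 and 0.59 for Krt23. Single genes changed sign, so the counts above hold only without centring. The principal cell gene Hsd11b2 became positive, at 0.09 with Krt7 and 0.14 with Krt23, and so did Kit, at 0.16 and 0.14. The median rho over all genes tested, not centred, was -0.09 for Krt7 and -0.11 for Krt23. Other lists varied with both keratins too. All 8 proximal tubule, 5 thick ascending limb, 4 globin and 9 macrophage and leukocyte genes tested were positive with each. In that order, the medians were 0.35, 0.30, 0.22 and 0.32 for Krt7 and 0.46, 0.35, 0.37 and 0.36 for Krt23. Centred on each mouse, they were -0.27, -0.34, -0.19 and 0.16 for Krt7 and -0.15, -0.41, -0.25 and 0.20 for Krt23. Which cells of a tubule held the Krt7 and Krt23 transcripts cannot be read from whole tubules.

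Krt19 varied in the opposite sense. Its rho was positive with 9 of 9 principal cell genes (median 0.46), and it was highest for the water channel Aqp2 at 0.59. With Slc26a4 it was -0.49, and with Slc4a1 it was 0.52. Of the 9 intercalated cell genes, 3 were positive with Krt19 and 6 were negative (median -0.27). Krt18 was also positive with 9 of 9 principal cell genes, at a median of 0.16 that became 0.64 when each mouse was centred on its own mean. When centred, Scnn1b at -0.11 and Hsd11b2 at -0.01 were negative with Krt18. For Krt8 the median over the principal cell genes was -0.10, and 0.41 when centred, so its sign depended on whether differences between mice were kept. Krt10 had medians of 0.09 for the principal and -0.19 for the intercalated genes. When each mouse was centred on its own mean they were -0.24 and -0.16, so the first changed sign. Over all genes tested the median rho, not centred, was 0.04 for both Krt18 and Krt19, 0.01 for Krt8 and -0.03 for Krt10.

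**Figure D3:**
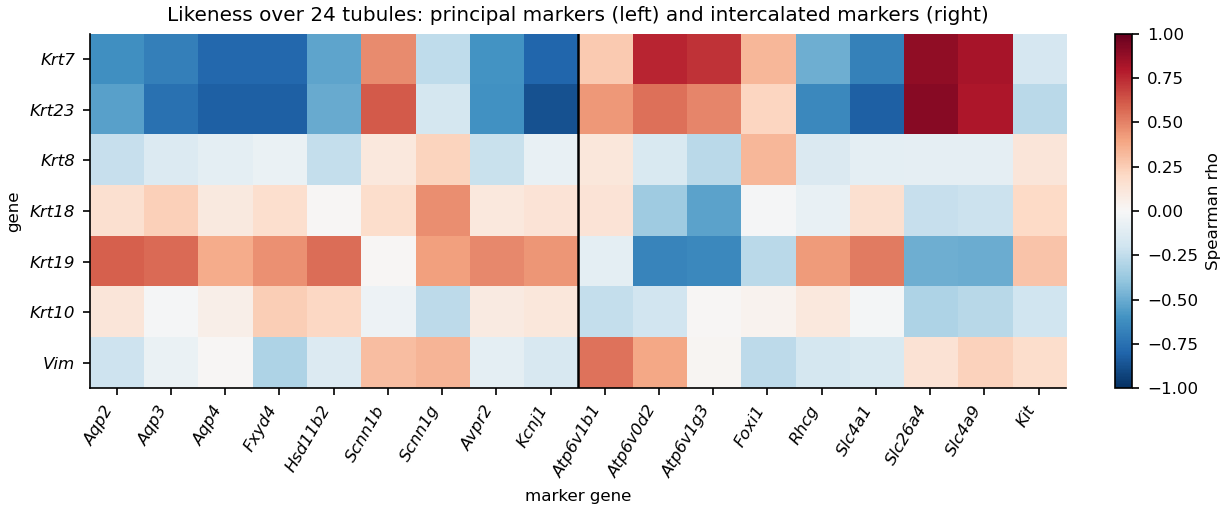
Spearman rho over 24 tubules between each tested keratin or Vim (rows) and the marker genes of principal and intercalated cells (columns), in colour from blue (negative) to red (positive). Krt7 and Krt23 are positive with Slc26a4 and Slc4a9 and negative with Slc4a1 and most principal cell genes, and Krt19 has the opposite signs for these exchangers.

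The genes most like each keratin across tubules were ranked by rho over the 24 tubules among genes of at least 5 TPM. Their relation to the balance of principal and intercalated cell transcripts was not tested. For Krt7 these were Hhatl (0.95), Mdh2, the mitochondrial malate dehydrogenase (0.92), and Tmem52 (0.92). For Krt23 they were Atp5a1, a subunit of ATP synthase (0.94), Ndufv1, a subunit of respiratory complex I (0.93), and Ccs, the copper chaperone of superoxide dismutase (0.93). For Krt8 they were the noncoding RNA gene Gm20186 (0.83), Krt18 (0.81) and the tight junction gene Cldn4 (0.79), and for Krt18 they were Krt8, Gm20186 (0.81) and the integrin gene Itgb6 (0.79). Further down the ranks of the Krt8 and Krt18 pair stood Nfkbia, the inhibitor of NF-kappaB, at 0.77 with Krt8 and 0.70 with Krt18, and the interferon-induced factor Irf1, at 0.75 with Krt18, both singled out after their values were seen. Krt19 was most like the scaffold gene Cnksr1 (0.79), the fatty acid oxidation gene Eci1 (0.75) and Selenon (0.73), and Krt10 was most like the centriole gene Poc1b (0.71), the ribosomal gene Rpl35a (0.69) and Rbm8a of the exon junction complex (0.68).

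At the other end of the ranking, Krt7 was most opposed to Igfbp7, a secreted binding protein of growth factors (-0.95), and to the potassium channel gene Kcnk1 (-0.93). Krt23 was most opposed to Lcn2, which encodes the iron-trafficking protein lipocalin 2 (-0.95), and to the epithelial transcription factor Elf5 (-0.95). Lcn2 had a rho of -0.89 with Krt7, 0.04 with Krt8 and 0.23 with Krt18, and when each mouse was centred on its own mean the values were -0.88, 0.77 and 0.87. These opposed genes too were singled out after their values were seen.

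Some filament genes outside these keratins varied with Krt7 and Krt23, and those with the strongest rho, singled out after their values were seen, are given here. The neurofilament gene Nefl, which ranged from 0.22 to 14.1 TPM, had a rho of 0.90 with Krt23 and 0.84 with Krt7. Of the 7 other intermediate filament genes tested, Nefl included, 3 were positive and 4 negative with each. The median rho of that list was -0.30 with Krt23 and -0.15 with Krt7. The plakin genes Ppl and Evpl, which link filaments to the cell border, had -0.88 and -0.85 with Krt23 and -0.79 and -0.75 with Krt7. Of the 13 desmosome and linker genes tested, 5 were positive with Krt23 and 8 were negative, and the median rho of the list was -0.15 with Krt23, 0.09 with Krt7, 0.00087 with Krt8 and 0.04 with Krt18. Krt80, a type II keratin at 70.5 TPM and the neighbour of Krt7 on the chromosome, had a rho of 0.75 with Krt7 and 0.55 with Krt23. The nuclear lamin gene Lmna and the small heat shock gene Hspb1, whose protein binds filaments, were the most like Krt8 in their lists, at 0.54 and 0.56. The median rho with Krt8 was -0.06 for the list of Lmna and 0.32 for that of Hspb1.

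The genes differed in where their spread lay. Krt7 was even, with an SD of 0.10 on the log2(TPM + 1) scale among tubules of a mouse, beside a median of 0.19 over all genes tested and of 0.14 over genes of 10 TPM or more. Krt8 and Krt18 both had 0.22, Krt19 had 0.28, Krt10 had 0.23 and Krt23 had 0.17. Genes of a level like that of each keratin were not compared. Among the mouse means of a genotype, Krt23 had an SD of 0.26 and Krt7 one of 0.12. The medians were 0.16 over all genes and 0.12 over genes of 10 TPM or more. The share of the variance lying between mice was 0.669 for Krt23, at the 95.1 percentile of genes tested, 0.551 for Krt7 and 0.237 for Krt18. Krt10 had a share estimated at -0.01, that is, no spread between mice beyond what the spread of their tubules brings.

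The central question of the design was whether the beta-catenin mutation changed these levels. No keratin passed the test between genotypes, nor did vimentin. Krt7 averaged 667, 573, 689 and 648 TPM in WT mice 1 to 4 and 579, 656, 673 and 700.3 TPM in MUT mice 1 to 4. Krt18 averaged 524, 433, 478 and 592 TPM in the WT mice and 492, 547, 405 and 475 TPM in the MUT mice. Both genotypes held a low and a high mouse, and the genotypes overlapped for both genes. Krt8 averaged 309.9, 230.2, 255 and 344 TPM in WT and 260.2, 321, 253 and 253 TPM in MUT, with MUT mouse 2 above the other 3. Krt23 averaged 89.2, 61.6, 106 and 88.0 TPM in WT and 69.0, 76.5, 78.5 and 91.1 TPM in MUT. WT mouse 2 was the lowest WT mouse for all of Krt7, Krt18, Krt8 and Krt23, and 1 of its tubules held the highest sum of principal cell genes.

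The limma test on log2(TPM + 1), averaged over the tubules of a mouse, covered 7 of the 9 genes, since Krt5 and Krt15 had means under 1 TPM. Of the 7 genes, 3 were higher and 4 lower in MUT, and 0 were called at an adjusted p under 0.05, against 0% of the 15013 genes tested. At an unadjusted p under 0.05 the count was again 0, beside 691 genes or 4.6% of all tested. The mouse means of the genotypes did not overlap for 0 of the 7 genes, beside 3.02% of all genes (MUT above WT in 1.94% and below in 1.08%). The median log2 difference of MUT minus WT was -0.05 over the 7 genes and 0.01 over all genes, with median sizes of 0.08 for both.

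For the type II chains the limma log2 difference was 0.02 for Krt7 (SE 0.08, adjusted p = 0.998), with a 95% interval from -0.16 to 0.20. For Krt8 it was -0.05 (SE 0.12, limma adjusted p = 0.997), with an interval from -0.33 to 0.23. Among type I chains, Krt18 differed by -0.07 (SE 0.11, limma adjusted p = 0.997), with an interval from -0.31 to 0.18, and Krt23 by -0.10 (SE 0.15, limma adjusted p = 0.997), with an interval from -0.45 to 0.24. As ratios of MUT to WT, the intervals ran from 0.897 to 1.15 for Krt7 and from 0.731 to 1.18 for Krt23. Krt19 averaged 12.6 ± 1.42 TPM in WT and 11.7 ± 1.82 TPM in MUT, a limma log2 difference of -0.13 (SE 0.12, adjusted p = 0.980). Krt10 averaged 17.4 ± 1.80 and 18.5 ± 1.53 TPM, a limma log2 difference of 0.08 (SE 0.09, adjusted p = 0.987). The ratio of type II to type I chains was 1.63 ± 0.0563 in WT and 1.71 ± 0.188 in MUT (SD, n = 4 mice), with overlapping mouse values.

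**Figure D4:**
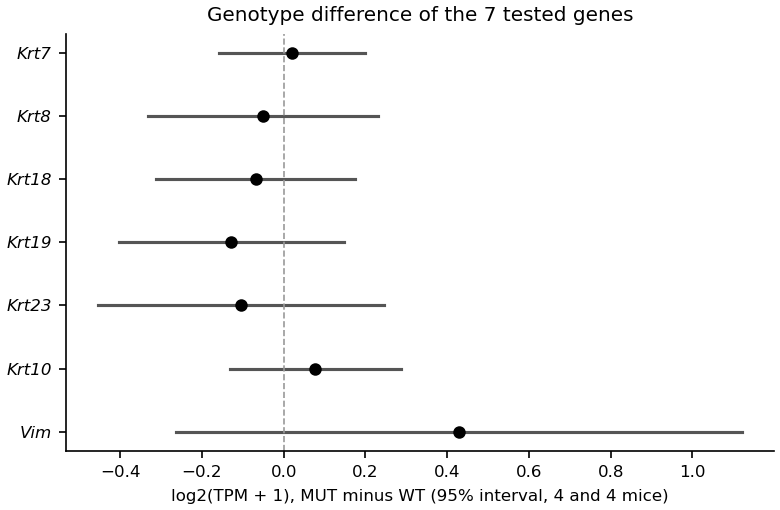
Log2 difference of MUT minus WT on the log2(TPM + 1) scale for the 7 genes tested, with bars for the 95% interval from limma. All 7 intervals cross 0, from the narrow interval of Krt7 (-0.16 to 0.20) to the wide one of Vim (-0.26 to 1.12).

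The wider filament system did not pass the test either. Of 47 other keratin genes 2 were tested, Krt80, which averaged 68.1 ± 10.3 TPM in the WT mice and 72.8 ± 7.12 TPM in the MUT mice, and the pseudogene Krt8-ps, both with a positive and uncalled difference. Of 15 other intermediate filament genes 7 were tested, 3 higher and 4 lower with 0 called, among them the nuclear lamin genes Lmna (65.3 ± 12.4 and 62.7 ± 9.48 TPM), Lmnb2 (15.8 ± 2.30 and 16.0 ± 1.61 TPM) and Lmnb1 (3.77 ± 0.667 and 4.52 ± 0.679 TPM), and Sync, of muscle filaments (5.17 ± 0.693 and 5.85 ± 0.814 TPM). Of 19 desmosome and linker genes 13 were tested, 8 higher and 5 lower with 0 called and a median of 0.04. Jup, which encodes plakoglobin, the desmosomal relative of beta-catenin, was the highest of them, at 336 ± 30.8 TPM in the WT mice and 344 ± 20.8 TPM in the MUT mice. At an unadjusted limma p under 0.05 stood 2 of the 13, Perp and Dst, beside 4.6% of all genes tested. For 1 of the 13 the MUT mice were all above the WT mice, beside 1.94% of all genes tested. The desmosome gene Perp averaged 61.7 ± 0.930 TPM in the WT mice and 70.1 ± 5.29 TPM in the MUT mice, with all MUT mice above all WT mice (limma log2 difference 0.18, SE 0.06, adjusted p = 0.980), and the linker gene Dst was at 69.2 ± 5.07 and 60.6 ± 4.76 TPM (limma log2 difference -0.19, SE 0.08, adjusted p = 0.980). Of 11 kinases and chaperones that act on filaments, 7 were higher and 4 lower, with 0 called and a median of 0.04. Here too 2 genes, Aurkb and Plk1, had an unadjusted limma p under 0.05. For 1 of the 11 the MUT mice were all above the WT mice. The ubiquitin ligase gene Stub1 averaged 285 ± 11.6 and 279 ± 10.4 TPM, and the casein kinase gene Csnk1a1 averaged 124 ± 6.90 and 123 ± 8.87 TPM. Aurkb, a mitotic kinase that phosphorylates vimentin, averaged 2.02 ± 0.310 TPM in the WT mice and 4.34 ± 1.01 TPM in the MUT mice, again with all MUT mice above all WT mice (limma log2 difference 0.88, SE 0.16, adjusted p = 0.869), and the mitotic kinase Plk1 at 1.37 ± 0.765 and 2.45 ± 0.746 TPM (limma log2 difference 0.61, SE 0.25, adjusted p = 0.980).

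Vim was low in nearly all tubules. Its lowest, median and highest values were 0.33, 1.17 and 4.33 TPM in WT tubules and 0.82, 1.74 and 14.3 TPM in MUT tubules. The highest value came from tubule 2 of MUT mouse 4, and the next in any library was 4.33 TPM. Mouse means were 2.64, 0.890, 1.99 and 0.833 TPM in WT and 2.38, 1.36, 1.81 and 6.23 TPM in MUT, so that MUT mouse 4 stood above the rest and the other 3 lay within the WT range. The limma log2 difference was 0.43 (SE 0.31, 95% interval -0.26 to 1.12, adjusted p = 0.980). Without the library with 14.3 TPM it was 0.24 (SE 0.24), and without MUT mouse 4 it was 0.18 (SE 0.26). With the middle tubule of each mouse in place of the mean, WT averaged 1.71 ± 0.969 TPM and MUT 1.53 ± 0.614 TPM (SD, n = 4 mice).

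The library with the highest Vim also led in a few genes of cells around the vessels and of the glomerulus, which were singled out after their values were seen. The pericyte genes Pdgfrb and Rgs5 stood there at 1.82 and 2.76 TPM, where the highest other library had 0.90 and 1.21 TPM, and Podxl stood at 7.63 TPM, where the highest other library had 5.17 TPM. Acta2, of smooth muscle and pericytes, was at 5.16 TPM, the second of 24 libraries. Of the 10 fibroblast and pericyte genes, 2 were tested, and the defining genes Col1a1 and Lum stayed under 1 TPM in every library. The summed level of that list ran from 26.9 to 104 TPM in WT and from 31.7 to 93.5 TPM in MUT, with Dcn as its highest gene, and the library in question was 5th of 24. The summed endothelial level ran from 80.4 to 382 TPM in WT and from 143 to 339.6 TPM in MUT, and this library was 17th, while for 9 macrophage and leukocyte genes (15.7 to 213 TPM in WT, 9.24 to 270.0 TPM in MUT) it was 10th. The summed level of 7 injured tubule markers ran from 568 to 1697 TPM in WT and from 509 to 1369 TPM in MUT, and the library with the highest Vim was 3rd of 24. Within that list its Spp1 was at 773 TPM (median of all libraries 517 TPM) and its Clu at 541 TPM (median 277 TPM), both 3rd of 24, while Lcn2 and Vcam1 were 17th and 19th and Havcr1 and Sox9 stayed under 1 TPM in every library. The part of these cells in the Vim value was not tested.

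Over all 24 tubules, Vim had a positive rho with 7 of 7 endothelial genes (median 0.21) and with 9 of 9 macrophage and leukocyte genes (median 0.31). With each mouse centred on its own mean, the medians were 0.15 and -0.16, so the second changed sign. Over all genes tested, not centred, Vim was positive with 7656 of 15013, at a median rho of 0.005. With the keratins its rho lay between -0.34, for Krt19 and Krt10, and 0.16, for Krt23. Among tubules of a mouse the SD of Vim was 0.67 on the log2(TPM + 1) scale, the highest of the 7 tested genes and far above the 0.19 of the median gene. It stood at the 91.5 percentile of genes tested. Vim was low, with a median of 1.365 TPM, the library at 14.3 TPM enters this SD, and genes of like level were not compared.

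**Figure D5:**
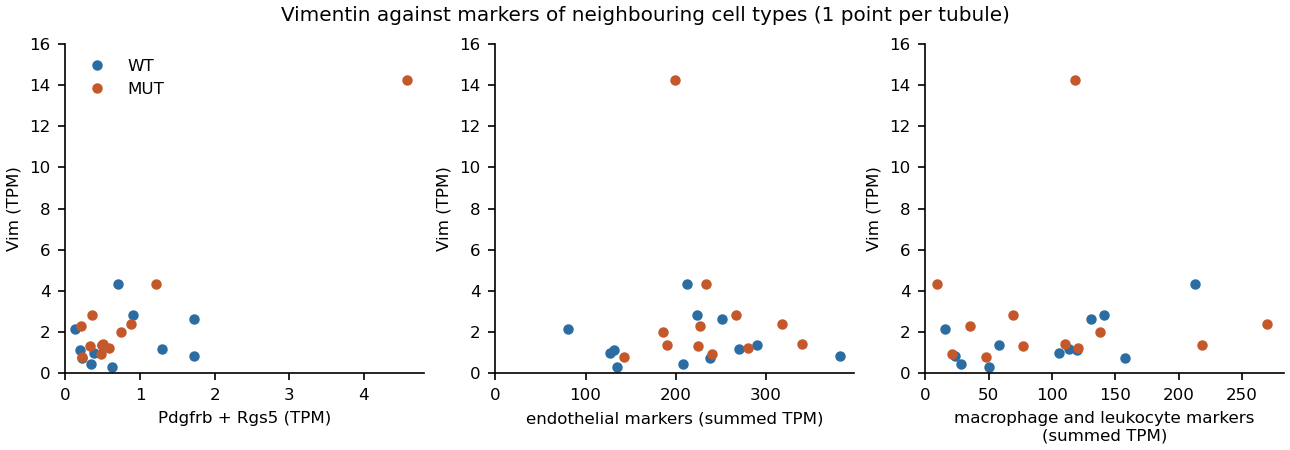
Vim in TPM against the summed TPM of Pdgfrb and Rgs5, of the endothelial genes and of the macrophage and leukocyte genes, with 1 point per tubule coloured by genotype. The MUT tubule at 14.3 TPM Vim lies alone at the right of the first panel and in the middle of the other panels, and every other tubule is at or below 4.33 TPM Vim. Pdgfrb and Rgs5 were singled out after their high values in that tubule were seen, so its place in the first panel follows from the choice. On the summed level of all 10 fibroblast and pericyte genes that tubule was 5th.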

How the data were processed

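The RNA of single cortical collecting ducts was amplified with SMART-Seq V4 and sequenced as polyA RNA, per the labels' protocols. STAR, GRCm39 and RSEM 1.3.3 stand in the submitters' processing notes with no role given. No annotation release or filter is given there. The authors deposited TPM per gene and tubule, and 0 tubule columns were left unused. The authors' means, ratios and p-values were not used. TPM keep no depth, so no counting intervals were given. From the TPM, log2(TPM + 1) was averaged over the 3 tubules of each mouse, and genes averaging 1 TPM or more were tested with limma 3.58.1 (R 4.3.3) with a mean-dependent prior and Benjamini-Hochberg adjustment over all genes tested, at 0.05. Descriptions used Python 3.11.15. Named genes were the 9 genes, Ctnnb1, the 2 highest and the 2 with the smallest p of each list, and the 3 most alike across tubules, and others are marked where named. The genes and lists were chosen with earlier results of these data known. Neighbouring genes were read from GENCODE vM21. The mouse numbers did not pair the samples. The alternatives were other pseudocounts, filters, scalings and averages, a replicate block, and leaving out mice or libraries.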

Additional observations from a re-analysis of the deposited data

Results flagged for a closer look

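Dixon's criterion, which by chance marks about 1 in 20 groups, was applied to 18 groups of 4 mice. The Krt8 mean of MUT mouse 2 was 321 TPM, where the nearest MUT mouse had 260.2 TPM, a gap of 0.889 of the range. The Krt5 mean of WT mouse 4 was 0.01 TPM and that of MUT mouse 4 was 0.0233 TPM, with the other 3 mice of each genotype at 0. With 3 mice at 0, any value above 0 meets the criterion, so these Krt5 values carry no weight.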

How the results depend on the processing

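The count of genes called between genotypes was 0 under the pseudocounts, filters, scalings and tubule averages tried. It was 1 in a fit of the single tubules with a random term for mouse (Anp32a), and 0 to 1 when 1 mouse was left out, the 1 being Gm22107 without MUT mouse 4. Without WT mouse 2, 1186 genes had an unadjusted p under 0.05. The fit with the mouse number as a replicate block called 0 genes, with 483 at an unadjusted p under 0.05. The deviations of equally numbered mice correlated at between -0.0382 and 0.0194, so the block stands for a shared number alone. No keratin and no Vim difference passed the threshold under any of these alternatives. When 1 mouse was left out, the log2 difference changed sign for 4 keratins: it ranged from -0.036 (without WT mouse 2) to 0.076 for Krt7, which was also -0.015 without MUT mouse 4, from -0.14 to 0.041 (without WT mouse 4) for Krt8, from -0.14 to 0.0096 (without MUT mouse 3, and 0.0011 without WT mouse 4) for Krt18, and from -0.26 to 0.0053 (without WT mouse 3) for Krt23. The cause was not tested. Over all alternatives, Vim ranged from 0.18 to 0.67, with 0.815 as the smallest limma adjusted p, and a filter at 10 TPM left it out. Without a filter on low values, Krt15 differed by -0.04 and Krt5 by 0.00. Since TPM hold no counts, what the depth could show for genes near 0 is unknown.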
